A study of Rattus norvegicus with 19 samples.

Results

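A set of 40 genes that cells switch on to copy their DNA and to divide were followed across the livers of rats given a flame retardant. A gene was represented by the probe set that carries its symbol alone and, where there were several, by the one with the highest mean over 19 arrays. Of the 40 genes, 37 had such a probe set, out of 14217 genes on the array. Of the other three, Rrm2 lay only on probe sets shared with other symbols, and no probe set used here was named Nek2 or Tpx2. The 37 genes comprised 11 that act in S phase, when DNA is replicated, and 26 that act in mitosis, when chromosomes and then cells separate.

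The arrays were Affymetrix Rat230_2, which read each transcript near its 3' end with a group of short probes called a probe set. Wistar Han rat dams received corn oil alone (vehicle, 5 arrays) or, in corn oil, DE-71, a flame retardant made of mixed pentabromodiphenyl ethers. The DE-71 doses were 0.1 mg/kg per day (5 arrays), 15 mg/kg per day (4 arrays, replicates 2 to 5) and 50 mg/kg per day (5 arrays). Dosing was oral and daily, beginning on gestation day 6 and ending on postnatal day 4. The RNA, 100 ng per array, came from the left lateral lobe of the liver at postnatal day 4, and the labels do not say whether the liver was a pup's or a dam's. Nothing in them says that arrays of a group came from separate litters, so the p-values below measure the spread between these samples.

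In a cell that is not dividing, E2F factors with their repressor partners keep S phase genes low. Growth signals acting through D-type cyclins release E2F, and helicase subunits and nucleotide-synthesis enzymes are transcribed. The mitotic genes follow later in the cycle, when the MuvB complex with B-MYB and FOXM1 activates promoters that hold a CHR element (cell cycle genes homology region), often with CCAAT boxes bound by NF-Y. The liver around birth divides actively, and besides hepatocytes it still holds blood-forming cells, chiefly of the red cell lineage, which cycle too. Values from whole liver therefore cannot tell fewer dividing cells apart from less RNA per cell.

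Promoter sequences are shown first because they separate the groups of genes described below by a property that the array values did not enter. RefSeq windows on GRCr8, from 250 bases before to 50 after the annotated start, were held for 32 of the 37 genes. The motifs were searched on both strands as TTTGAA or TTTAAA (CHR), CCAAT, and TTTGGCGC, TTTCCCGC, TTTGCCGC or TTTCGCGC (E2F). Capitals mark every match, so a match on the opposite strand appears as its reverse complement, for example ATTGG for CCAAT. The helicase genes Mcm5 (chr19:13488563-13488862, plus strand) and Mcm7 (chr12:22163129-22163428, minus strand) stand for S phase. In Mcm5 the first run of capitals holds an E2F match on each strand, and in Mcm7 the last run holds an E2F match that overlaps a CCAAT box by 1 base. Cdk1 (chr20:19265043-19265342, plus strand), Ccnb1 (chr2:33655176-33655475, minus strand), Ect2 (chr2:111966577-111966876, minus strand) and Top2a (chr10:84473044-84473343, minus strand) stand for mitosis.
Mcm5: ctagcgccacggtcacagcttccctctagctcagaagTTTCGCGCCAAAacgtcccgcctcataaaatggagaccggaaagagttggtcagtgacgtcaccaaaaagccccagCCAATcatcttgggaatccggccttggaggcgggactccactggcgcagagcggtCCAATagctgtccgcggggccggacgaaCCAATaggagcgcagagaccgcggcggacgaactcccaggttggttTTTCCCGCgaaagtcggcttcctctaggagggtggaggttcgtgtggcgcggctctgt
Mcm7: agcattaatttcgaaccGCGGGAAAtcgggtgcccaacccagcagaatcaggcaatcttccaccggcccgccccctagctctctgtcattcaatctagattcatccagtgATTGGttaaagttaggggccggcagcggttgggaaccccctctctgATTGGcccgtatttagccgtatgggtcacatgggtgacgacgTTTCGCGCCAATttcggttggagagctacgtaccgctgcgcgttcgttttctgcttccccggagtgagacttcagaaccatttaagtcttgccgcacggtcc
Cdk1: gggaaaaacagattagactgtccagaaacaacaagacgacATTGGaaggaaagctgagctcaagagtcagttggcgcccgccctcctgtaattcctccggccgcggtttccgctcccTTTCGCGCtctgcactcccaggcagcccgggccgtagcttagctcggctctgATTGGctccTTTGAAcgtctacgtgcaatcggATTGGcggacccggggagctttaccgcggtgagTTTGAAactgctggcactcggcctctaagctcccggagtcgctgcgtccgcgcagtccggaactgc
Ccnb1: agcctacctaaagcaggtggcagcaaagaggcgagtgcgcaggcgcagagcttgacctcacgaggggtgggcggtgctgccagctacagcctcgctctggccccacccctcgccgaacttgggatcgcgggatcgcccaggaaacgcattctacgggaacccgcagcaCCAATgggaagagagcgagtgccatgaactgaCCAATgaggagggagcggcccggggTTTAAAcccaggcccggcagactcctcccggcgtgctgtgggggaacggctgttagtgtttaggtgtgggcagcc
Ect2: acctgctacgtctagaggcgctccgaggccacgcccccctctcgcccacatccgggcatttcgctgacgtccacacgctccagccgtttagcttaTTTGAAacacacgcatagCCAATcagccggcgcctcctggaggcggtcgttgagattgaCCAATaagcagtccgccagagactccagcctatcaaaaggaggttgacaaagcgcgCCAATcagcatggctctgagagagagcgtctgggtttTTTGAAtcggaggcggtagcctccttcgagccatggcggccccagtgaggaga
Top2a: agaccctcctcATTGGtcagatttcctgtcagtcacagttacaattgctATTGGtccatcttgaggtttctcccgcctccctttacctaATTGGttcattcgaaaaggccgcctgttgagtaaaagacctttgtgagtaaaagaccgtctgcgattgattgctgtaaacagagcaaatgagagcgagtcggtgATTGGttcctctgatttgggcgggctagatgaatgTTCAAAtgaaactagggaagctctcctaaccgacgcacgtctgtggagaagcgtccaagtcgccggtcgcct

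A CHR match lay in 20 of 22 windows of mitotic genes (90.9%) and in 1 of 10 windows of S phase genes (10.0%), against 28.3% of all 33469 windows. The E2F letters showed the opposite split, with 7 of 10 S phase windows (70.0%) and 1 of 22 mitotic windows (4.55%, that of Cdk1), against 2.14% of all windows. CCAAT boxes were frequent in both, at 7 of 10 (70.0%) and 18 of 22 (81.8%), against 37.5% of all windows. A match describes the letters in the window and does not show that a factor binds there.

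Some features of the arrays bear on every value below. On the array labelled 0.1 mg/kg replicate 1, Cyp1a1, a cytochrome P450 that aryl hydrocarbon receptor ligands induce, read 14.06, against 7.19 to 8.42 on the other 4 arrays of that group and 7.10 to 8.36 on vehicle arrays. That array goes against its label, and results are given with and without it where it changes them. All 19 arrays are labelled female. Yet the Y-linked genes Eif2s3y and Uty read 9.55 to 10.07 and 9.46 to 10.03, while Xist read 3.88 to 4.29. Those are levels of male tissue, which goes against the label and would not be a dam's. All arrays carry the same sex label, so these probe sets could not be checked against the other sex. Vehicle replicate 2 and 0.1 mg/kg replicate 2, labelled as different groups, were the most alike of 171 pairs of arrays. The SD of their differences over probe sets was 0.127, against 0.197 for the next closest pair and 0.385 at the median, and none of the 37 genes differed by more than 0.13 between them. Whether they hold the same RNA was not tested. With both left out, 0 of the 37 genes passed in any comparison and the median difference at 0.1 mg/kg was -0.05. Array numbers in the labels run from 1 to 20 with no stated meaning. Numbers 1 to 8 (early arrays) hold 4 of the 5 arrays at 50 mg/kg but 1 each from vehicle, 0.1 and 15 mg/kg, and the other 12 are late. Skeletal muscle or exocrine pancreas genes stood more than 2 log2 units above their median array on vehicle replicates 1, 2, 4 and 5, 0.1 mg/kg replicate 2, 15 mg/kg replicates 4 and 5 and 50 mg/kg replicates 2 and 3. The hepatocyte markers were bright on every array, with albumin (Alb) at 15.01 to 15.06 and alpha-fetoprotein (Afp), an early-life albumin relative, at 14.47 to 14.70. Array medians lay between 6.06 and 6.16, and all 37 genes averaged more than that, from 7.11 to 11.74 (log2 signal).

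Against vehicle, none of the 37 genes passed at any dose in limma's test with Benjamini-Hochberg adjustment over 31042 probe sets, at a threshold of 0.05. At 50 mg/kg the background was 1.61% of probe sets called (499), a share at which 0 of 37 genes is not unusual. The background was 0.0% at 15 mg/kg, 0.0% at 0.1 mg/kg and 0.0% for 50 against 15 mg/kg. A test for any difference among the 4 groups called 0 of 37 genes, where 0.325% of probe sets passed. Without adjustment, p was under 0.05 for 1 gene at 50 mg/kg, 0 at 15 mg/kg, 0 at 0.1 mg/kg and 2 for 50 against 15 mg/kg. The matching shares of all probe sets were 15.4%, 9.93%, 2.46% and 7.79%. An ordinary t statistic without limma's shrinkage also called 0 genes in each comparison. In no comparison did any of the 37 genes have groups that did not overlap, against 4.69% of probe sets at 50 mg/kg, 3.37% at 15 mg/kg, 0.2% at 0.1 mg/kg and 2.86% for 50 against 15 mg/kg.

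**Figure D1:**
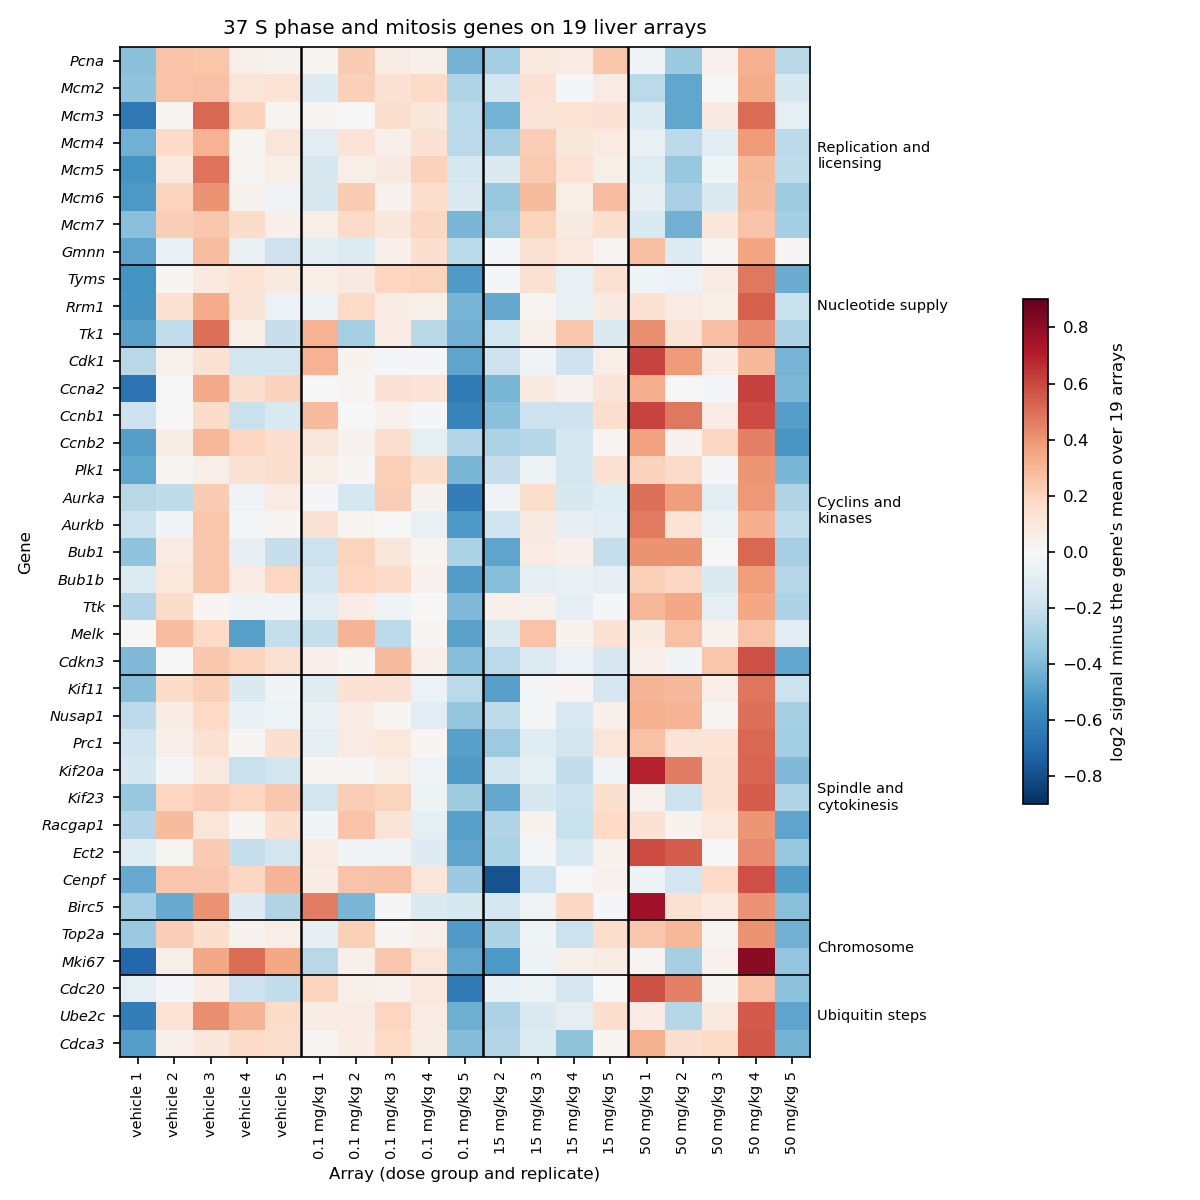
Log2 signal of the 37 genes (rows, by role) on each of the 19 arrays (columns, by dose group), as the difference from each gene's mean over 19 arrays. One column in every dose group is low nearly throughout: vehicle replicate 1, 0.1 mg/kg replicate 5, 15 mg/kg replicate 2 and 50 mg/kg replicate 5.

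The difference from vehicle at 50 mg/kg was above 0 for 24 of 37 genes and below 0 for 13, with a median of 0.10, where 51.5% of all genes were above 0 and their median was 0.0058. The median over the 37 was -0.02 without vehicle replicate 1 and 0.22 without 50 mg/kg replicate 5. A p that misses the threshold does not show that values were equal, and the intervals say how large a change could have been missed. At 50 mg/kg the 95% intervals of the 37 differences ran from -0.55 at the lowest bound to 0.76 at the highest on the log2 scale. All 37 intervals lay within 2-fold in either direction and 29 lay within 1.5-fold. At 15 mg/kg 33 of 37 lay within 1.5-fold, and at 0.1 mg/kg 36 did. For 50 against 15 mg/kg 22 of 37 lay within 1.5-fold and all 37 within 2-fold. The number of arrays limits this precision.

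Among the S phase genes, the 6 subunits of the MCM helicase, which unwinds DNA at the replication fork, all had lower means at 50 mg/kg than in vehicle. The median of the 6 differences was -0.12 and their range was -0.18 to -0.04. With a block for early against late arrays only 2 of the 6 were below 0 (median 0.04), and 4 were without vehicle replicate 3. The median of the 6 was -0.02 without that array, -0.25 without vehicle replicate 1 and -0.21 without 50 mg/kg replicate 4. It was -0.07 without 50 mg/kg replicate 5, -0.06 without 50 mg/kg replicate 2, and -0.36 without the 9 arrays that carried muscle or pancreas transcripts. Mcm2 read 9.23, 9.85, 9.85, 9.70 and 9.72 on vehicle replicates 1 to 5. At 50 mg/kg it read 9.35, 9.12, 9.59, 9.92 and 9.45. The array lowest in vehicle was below all but 1 of those at 50 mg/kg, and the groups overlapped. The difference was -0.18 ± 0.143 (SE), with an adjusted p of 0.570 in limma. Mcm7 read 10.32, 10.92, 10.93, 10.86 and 10.74 in vehicle and 10.55, 10.26, 10.79, 10.95 and 10.39 at 50 mg/kg. Its groups overlapped in the same way, and the difference was -0.16 ± 0.154 (SE; limma adjusted p 0.639). Mcm3, Mcm4, Mcm5 and Mcm6 differed by -0.04, -0.09, -0.11 and -0.12.

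Pcna, the sliding clamp that holds DNA polymerase on its template, differed by -0.09 at 50 mg/kg. Gmnn encodes geminin, which blocks a second licensing of origins. It read 7.92, 8.32, 8.67, 8.32 and 8.21 in vehicle, 8.29, 8.27, 8.43, 8.54 and 8.15 at 0.1 mg/kg, 8.38, 8.53, 8.48 and 8.41 at 15 mg/kg and 8.66, 8.27, 8.42, 8.75 and 8.40 at 50 mg/kg. Vehicle replicate 1 was its lowest array, and the groups otherwise shared one range. The difference was 0.16 ± 0.125 (SE; limma adjusted p 0.659) at 15 mg/kg, the largest positive one among the 37 genes at that dose, and 0.21 at 50 mg/kg (limma adjusted p 0.401).

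The nucleotide-supply genes had means at or above vehicle at 50 mg/kg. Tk1, thymidine kinase of the salvage route, differed by 0.27, Rrm1, the large subunit of ribonucleotide reductase, by 0.12 and Tyms, thymidylate synthase, by 0.05. None passed. Tyms read 6.57, 7.12, 7.20, 7.23 and 7.19 in vehicle and 7.17, 7.19, 7.30, 7.31 and 6.60 at 0.1 mg/kg. A single low array stood in each of these groups, and the remaining arrays lay close together. Its difference at 0.1 mg/kg was 0.05 ± 0.164 (SE; limma adjusted p 1.00), and it turned to -0.07 without vehicle replicate 1.

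**Figure D2:**
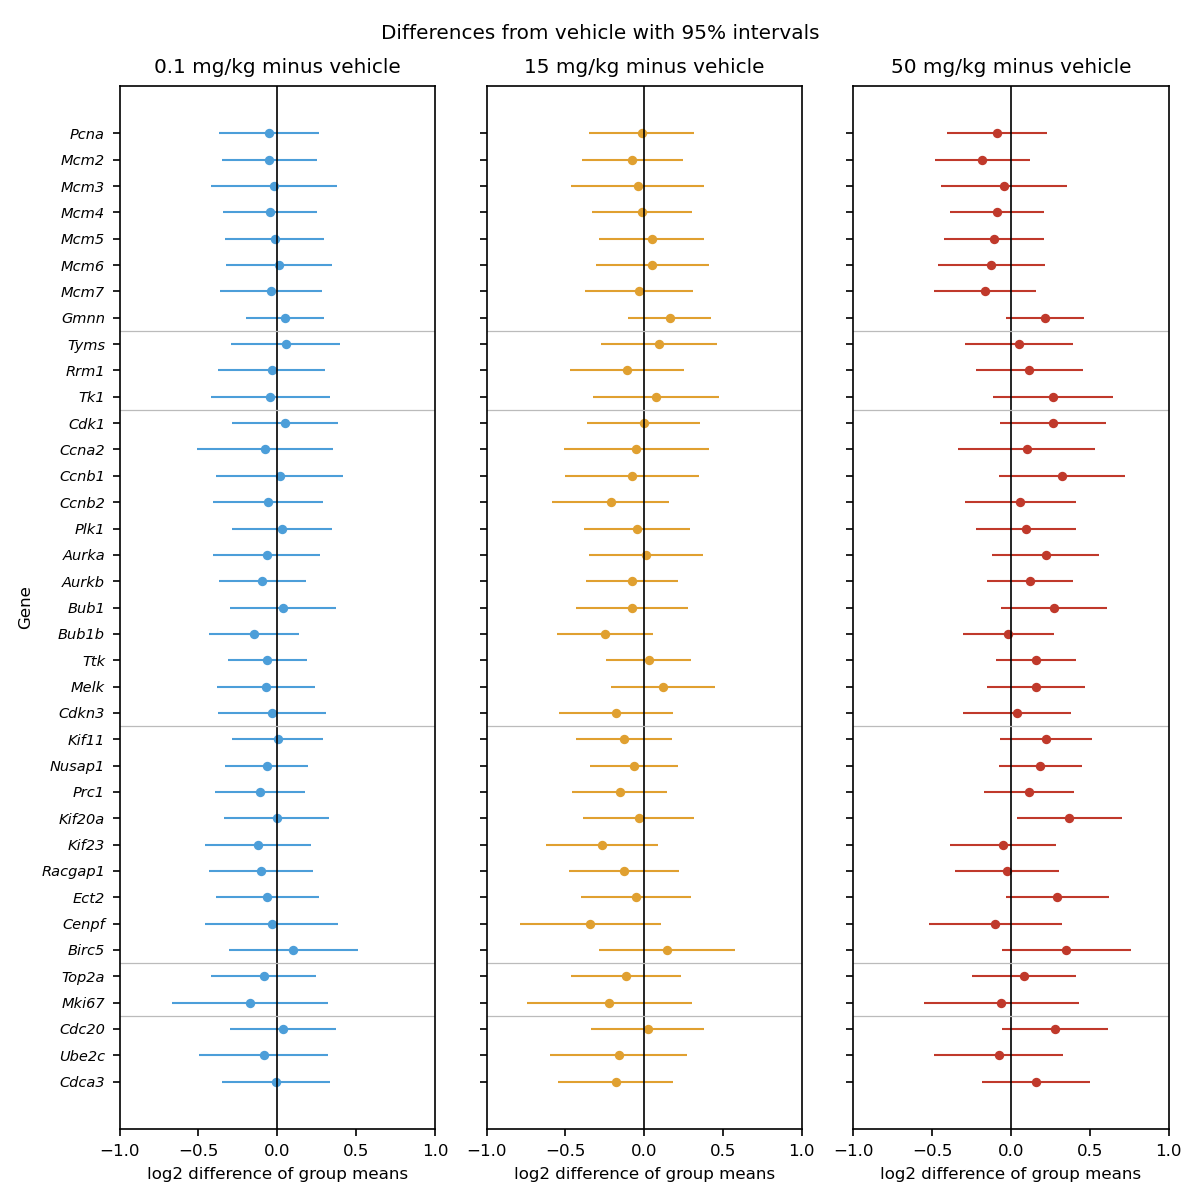
Difference from vehicle in log2 signal for each of the 37 genes at 0.1, 15 and 50 mg/kg, with points at the difference of group means and lines for 95% intervals from limma. The MCM subunits lie at -0.18 to -0.04 at 50 mg/kg, most mitotic genes lie to the right of 0, and Kif20a at 50 mg/kg (0.04 to 0.70) has an interval that leaves out 0 before adjustment.

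Of the 26 mitotic genes, 20 had higher means at 50 mg/kg than in vehicle, with a median difference of 0.14, against 51.5% of all genes with a difference above 0. With arrays left out in turn, the count ranged from 15 without vehicle replicate 1 to 26 without 50 mg/kg replicate 5. It was 8, with a median of -0.05, without the arrays that carried muscle or pancreas transcripts, which left 1 vehicle array. Against 15 mg/kg, all 26 had higher means at 50 mg/kg, with a median of 0.23, where 52.9% of all genes were higher. The count was 24 without 50 mg/kg replicate 4, 25 without 15 mg/kg replicate 2, and 0 within the late arrays. None of the 26 passed in either comparison.

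Kif20a encodes a kinesin motor that works at the central spindle as the cell divides. It read 8.41, 8.54, 8.63, 8.35 and 8.39 in vehicle and 8.57, 8.56, 8.60, 8.52 and 8.04 at 0.1 mg/kg. At 15 mg/kg it read 8.39, 8.47, 8.33 and 8.52, and at 50 mg/kg 9.24, 9.02, 8.68, 9.08 and 8.15. At 50 mg/kg 4 arrays were above every vehicle array, and the remaining one, replicate 5, was below all of them. The difference of 0.37 ± 0.159 (SE) was the largest among the 37 genes, with a limma p of 0.0313 and an adjusted p of 0.269. Without 50 mg/kg replicate 5 the difference was 0.54 with an adjusted p of 0.0364, the single alternative of 22 in which it passed. The adjusted p over those alternatives ran from 0.0364 to 0.998. Its p for any difference among the 4 groups was 0.0654 (limma adjusted p 0.512), the smallest of the 37. For 50 against 15 mg/kg Kif20a differed by 0.41 (limma adjusted p 0.591), and Kif11, the kinesin that pushes spindle poles apart, by 0.35 (limma adjusted p 0.593). Those were the 2 genes with an unadjusted p under 0.05 in that comparison.

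Birc5 encodes survivin, a part of the chromosomal passenger complex. It read 7.52, 7.37, 8.23, 7.71 and 7.56 in vehicle and 8.29, 7.42, 7.81, 7.70 and 7.69 at 0.1 mg/kg. At 15 mg/kg it read 7.67, 7.80, 8.02 and 7.82, and at 50 mg/kg 8.59, 7.97, 7.92, 8.23 and 7.45. Vehicle replicate 3 stood level with 50 mg/kg replicate 4, 50 mg/kg replicate 1 and 0.1 mg/kg replicate 1 were above both, and 50 mg/kg replicate 5 was within the vehicle range. The difference at 50 mg/kg was 0.35 ± 0.194 (SE; limma adjusted p 0.401), at 15 mg/kg 0.15 and at 0.1 mg/kg 0.10. The highest array at 0.1 mg/kg was replicate 1, the one that goes against its label, and without it the difference there was -0.03.

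Ect2, the exchange factor that activates RhoA for the contractile ring, read 9.65, 9.77, 9.99, 9.56 and 9.60 in vehicle. It read 9.84, 9.74, 9.73, 9.65 and 9.29 at 0.1 mg/kg, 9.48, 9.75, 9.63 and 9.79 at 15 mg/kg and 10.35, 10.31, 9.76, 10.19 and 9.43 at 50 mg/kg. Of the arrays at 50 mg/kg, replicates 1, 2 and 4 lay above all vehicle arrays, and replicate 5 lay below them. The difference was 0.29 ± 0.155 (SE; limma adjusted p 0.381). The other spindle and cytokinesis genes lay between -0.10 and 0.22 at 50 mg/kg. Cenpf, a kinetochore protein, gave the lowest of these values, and Kif11 the highest. Kif23 (-0.05) and Racgap1 (-0.03), the 2 subunits of centralspindlin, lay near 0. Prc1, which bundles midzone microtubules, differed by 0.11, and Nusap1, a microtubule-binding spindle protein, by 0.19. Kif23 also had a second probe set, with a difference of 0.14. It was the only one of 14 further probe sets whose sign differed from that of the main one. That second probe set was dim, with a mean of 5.58, below every array median. Its deviations from group means hardly followed those of the main one (correlation 0.092).

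Ccnb1, cyclin B1, which drives entry into mitosis with Cdk1, read 9.14, 9.32, 9.49, 9.13 and 9.19 in vehicle and 9.94, 9.80, 9.40, 9.91 and 8.83 at 50 mg/kg. Replicates 1, 2 and 4 at 50 mg/kg lay above the vehicle range, and replicate 5 lay below it. The difference was 0.32 ± 0.190 (SE; limma adjusted p 0.430). Cdk1 itself read 9.44, 9.73, 9.82, 9.53 and 9.52 in vehicle and 10.30, 10.07, 9.76, 9.98 and 9.27 at 50 mg/kg, with the same pattern. Its difference was 0.27 ± 0.160 (SE; limma adjusted p 0.442). The cyclin genes Ccna2 and Ccnb2 had differences of 0.10 and 0.06 (limma adjusted p 0.845 and 0.887).

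The mitotic kinases spanned a similar range. Bub1 (0.27), Aurka (0.22), Ttk (0.16), Melk (0.16), Aurkb (0.12) and Plk1 (0.10) had positive differences at 50 mg/kg. Bub1 and Ttk (Mps1) act in the spindle checkpoint, Aurka at spindle poles and Aurkb in the passenger complex. Bub1b encodes BubR1, another part of that checkpoint, and differed by -0.02. The phosphatase gene Cdkn3 differed by 0.04. Cdc20, which activates the anaphase-promoting complex, differed by 0.28. Ube2c, the ubiquitin-conjugating enzyme of that complex, differed by -0.08, and Cdca3 by 0.16. Top2a, which untangles sister chromatids, differed by 0.08. None passed in limma, with adjusted p-values from 0.424 (Cdc20) to 0.962 (Bub1b).

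**Figure D3:**
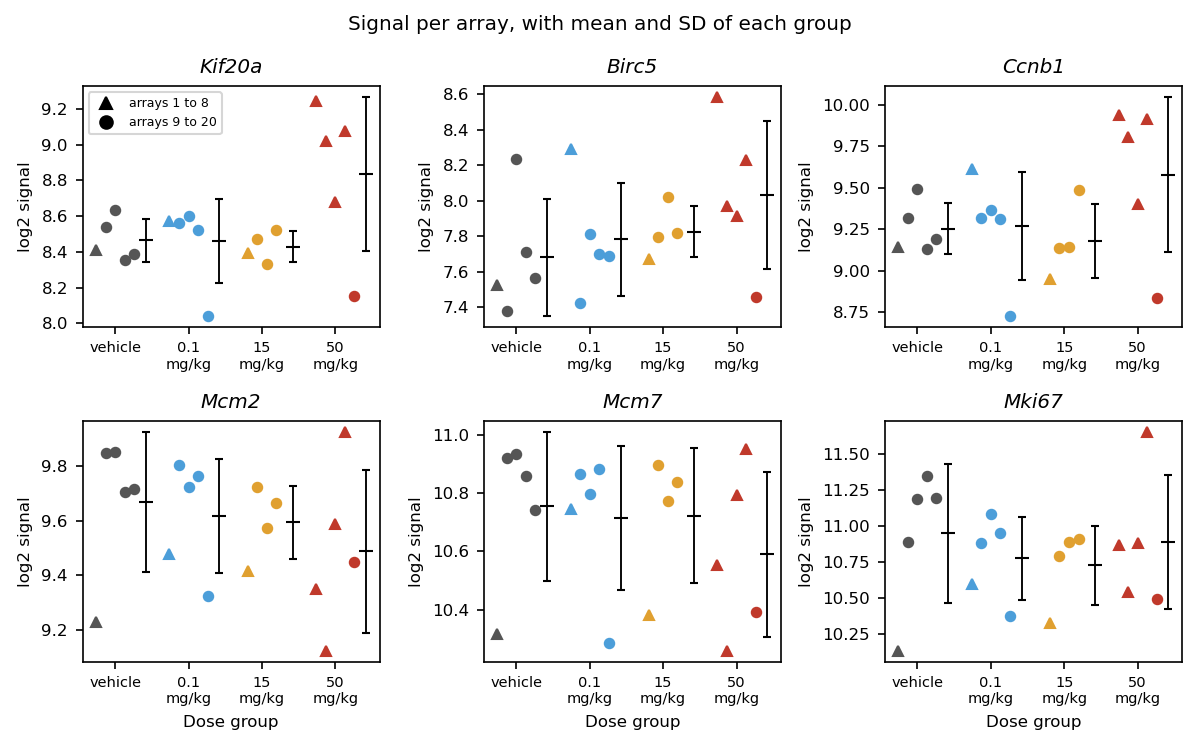
Log2 signal on each array of 6 of the genes, by dose group, with 1 point per array (triangles, arrays 1 to 8; circles, later arrays) and the group mean ± SD beside the points. The vehicle and dose groups overlap in every panel, and for Kif20a at 50 mg/kg 4 points lie at 8.68 to 9.24 and 1 at 8.15.

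At the lower doses the medians lay slightly below 0. At 15 mg/kg 27 of 37 genes had lower means than vehicle, with a median of -0.05, against -0.0025 over all genes. Cenpf had the lowest difference. It read 8.20, 8.90, 8.90, 8.84 and 8.96 in vehicle and 7.87, 8.46, 8.66 and 8.69 at 15 mg/kg. Its 15 mg/kg replicate 2 was the lowest of both groups, and the groups overlapped through vehicle replicate 1. The difference was -0.34 ± 0.213 (SE; limma adjusted p 0.593), and -0.16 without 15 mg/kg replicate 2. Kif23 read 8.58, 9.11, 9.15, 9.12 and 9.17 in vehicle and 8.46, 8.78, 8.73 and 9.06 at 15 mg/kg, with the same overlap, a difference of -0.27 ± 0.169 (SE) and a limma adjusted p of 0.596. It was -0.17 without 15 mg/kg replicate 2 and -0.02 as the mean of both Kif23 probe sets, the second of which was dim (mean 5.58).

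At 0.1 mg/kg 27 of 37 genes again had lower means than vehicle, with a median of -0.04, against 0.01 over all genes. The vehicle arrays are shared by all 3 dose comparisons. Mki67, the Ki-67 antigen that coats mitotic chromosomes, read 10.13, 10.89, 11.19, 11.35 and 11.19 in vehicle and 10.59, 10.88, 11.08, 10.95 and 10.37 at 0.1 mg/kg. The lowest array of both groups was vehicle replicate 1, and the groups overlapped. The difference was -0.17 ± 0.234 (SE; limma adjusted p 1.00), with -0.38 without vehicle replicate 1 and -0.07 without vehicle replicate 4 or 0.1 mg/kg replicate 5. Bub1b read 8.06, 8.28, 8.44, 8.26 and 8.38 in vehicle and 8.03, 8.38, 8.36, 8.23 and 7.69 at 0.1 mg/kg, a difference of -0.15 ± 0.136 (SE; limma adjusted p 1.00) between overlapping groups. It was -0.03 without 0.1 mg/kg replicate 5.

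The larger differences were between arrays within a group, and there the genes were high or low together. On vehicle replicate 1, 35 of 37 genes were below their own group's mean, with a median deviation of -0.41. All 37 were below on 0.1 mg/kg replicate 5 (median -0.39) and on 50 mg/kg replicate 5 (median -0.45). On 15 mg/kg replicate 2, 34 of 37 were below (median -0.19). These arrays were the lowest of their group for 31 genes in vehicle, 35 at 0.1 mg/kg, 30 at 15 mg/kg and 30 at 50 mg/kg. All 37 genes were above their group's mean on vehicle replicate 3 (median 0.23) and on 50 mg/kg replicate 4 (median 0.35). Over all genes, the median deviation stayed within -0.06 to 0.02 on every array.

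Related genes outside the 37 were also mostly below their group means on the 4 low arrays. The median deviations of 37 further mitosis genes were -0.43 on vehicle replicate 1, -0.35 on 0.1 mg/kg replicate 5, -0.23 on 15 mg/kg replicate 2 and -0.33 on 50 mg/kg replicate 5. Those of 32 further replication genes were -0.30, -0.15, -0.14 and -0.09. At 50 mg/kg these replication genes were lowest on replicate 2 (median -0.16, 27 of 32 below the group's mean), not on replicate 5 (20 of 32 below). S phase and mitotic genes parted within the 50 mg/kg group. Relative to the mean of 19 arrays, their medians were -0.07 and 0.31 on replicate 1, -0.29 and 0.18 on replicate 2 and 0.04 and 0.05 on replicate 3. On replicate 4 they were 0.36 and 0.47, and on replicate 5 -0.23 and -0.37.

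**Figure D4:**
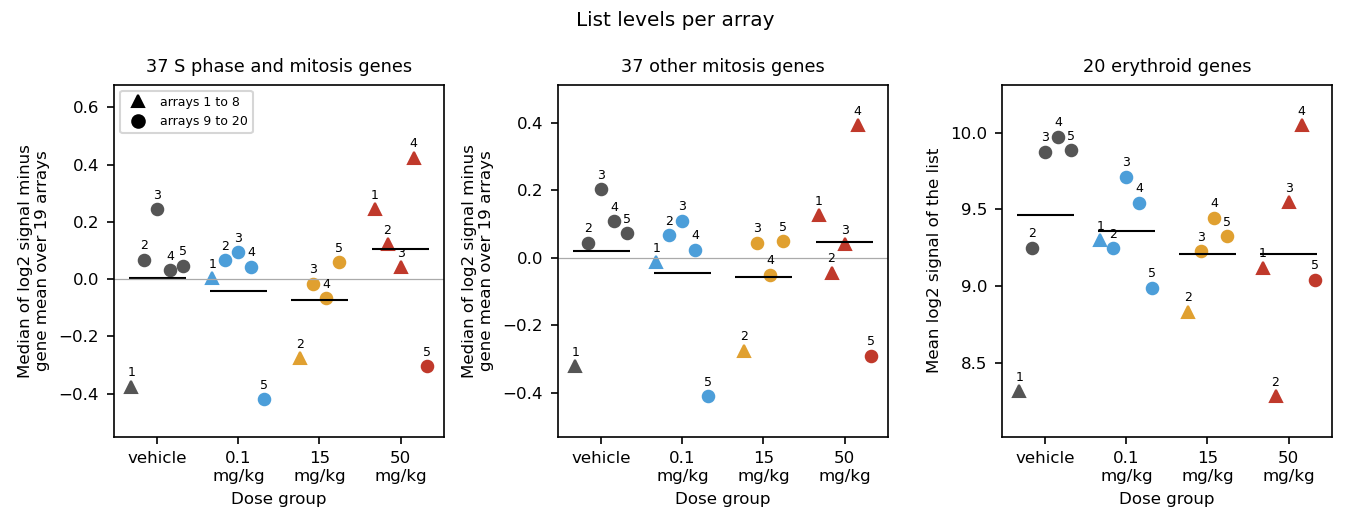
Median difference from the mean of 19 arrays (log2) for the 37 genes and for 37 further mitosis genes, and mean log2 signal of 20 erythroid genes, with 1 numbered point per array (triangles, arrays 1 to 8) and bars at group means. Any group has a lowest array, and for the 37 genes it stood at -0.38, -0.42, -0.28 and -0.30 in the order of dose. The erythroid level is lowest on 50 mg/kg replicate 2 (8.29), where the 37 genes stood at 0.12. The S phase genes among them stood at -0.29 there and the mitotic genes at 0.18.

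Markers of other cells were read on the same arrays. The erythroid list, 20 of 26 genes measured, had mean levels of 8.32, 8.99, 8.83 and 9.04 on the 4 low arrays. Its range was 8.32 to 9.97 in vehicle, 8.99 to 9.71 at 0.1 mg/kg, 8.83 to 9.45 at 15 mg/kg and 8.29 to 10.05 at 50 mg/kg. Alas2, the first enzyme of heme synthesis in red cells, ranged from 9.80 to 11.77 over the arrays, and Slc4a1, the red cell anion exchanger, from 8.92 to 11.45. The neutrophil precursor list, 11 of 17 genes measured, with Mpo and Elane not measured, had mean levels of 8.38, 8.54, 8.57 and 8.47 on those arrays, in a range of 8.38 to 9.24 over all arrays. The hepatocyte list ranged from 14.01 to 14.16. Its genes were very bright, and whether such bright probe sets could register a change in the share of hepatocytes was not tested. On the 4 low arrays, in the same order, the macrophage list read 9.86, 10.31, 9.91 and 9.80, in a range of 9.57 to 10.32 over all arrays. The stellate cell list read 10.62, 8.82, 9.39 and 8.78, in a range of 8.44 to 10.62. The megakaryocyte list read 6.91, 7.46, 6.98 and 7.30, in a range of 6.85 to 7.99. Vehicle replicate 1 also carried skeletal muscle transcripts (list mean 10.84). It had the largest 3' to 5' difference of the actin control probes (2.44, in a range of 1.68 to 2.44). The GAPDH control probes did not set it apart (0.18, in a range of 0.01 to 0.29). On the other low arrays, in the order above, the actin difference was 1.915, 2.099 and 2.052. The part of these cells and of RNA quality in the array differences was not tested.

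Because 4 of the 5 arrays at 50 mg/kg were early, the differences were also taken within early and within late arrays, a split chosen after the data were seen. Within early arrays, 4 at 50 mg/kg against vehicle replicate 1, all 37 genes were higher at 50 mg/kg, with a median of 0.58, and 58.4% of all genes were higher. Within late arrays, 50 mg/kg replicate 5 against 4 vehicle arrays, 36 of 37 were lower, with a median of -0.39, and 50.9% of all genes were higher. For 50 against 15 mg/kg the medians were 0.47 and -0.34. Each of these sets 1 array against several, so they are values with no test, and each lone array is one of the 4 low arrays. At 0.1 mg/kg the late arrays, 4 against 4, gave a median of -0.14. They include the low array of that dose, replicate 5, but not the low vehicle array, replicate 1, which is early.

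**Figure D5:**
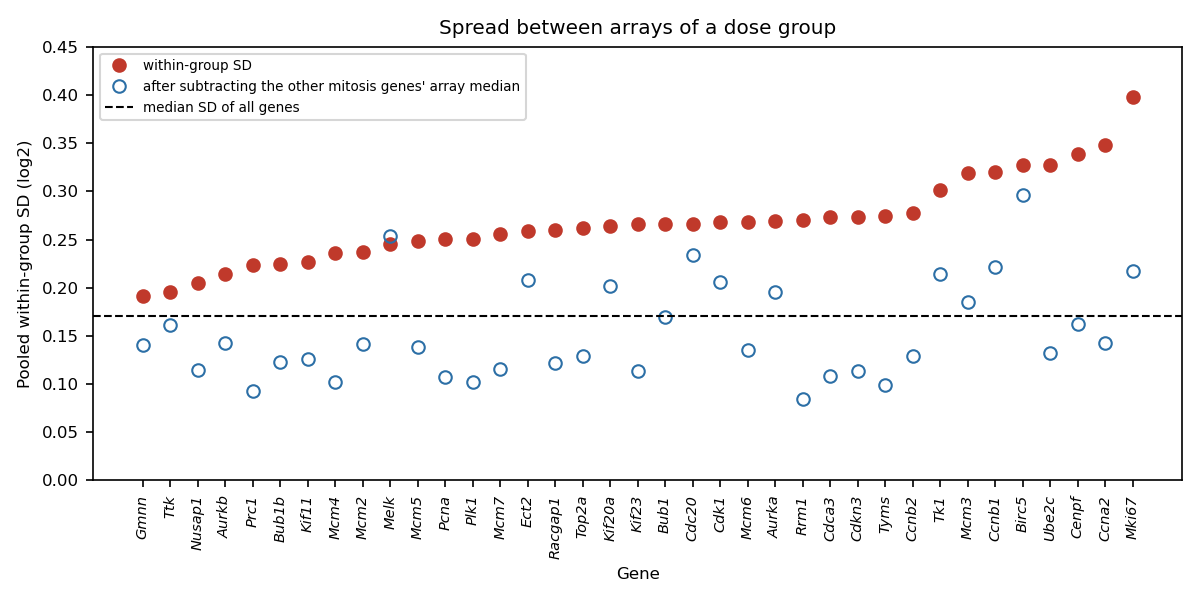
Pooled within-group SD of log2 signal of each of the 37 genes (filled), and the same after the median of further mitosis genes on each array was subtracted (open), with a dashed line at the median of all genes. The 37 genes lie at 0.19 to 0.40, above the median of 0.17 over all genes, and their median goes from 0.27 to 0.14 after the subtraction.

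The spread between arrays was thus larger for these genes than for most. Their pooled within-group SD ranged from 0.19 to 0.40 with a median of 0.27, against a median of 0.17 over all genes. All 37 were above that median, and 25 were above the upper quartile of 0.25. The smallest SDs were those of Gmnn (0.19), Ttk (0.20) and Nusap1 (0.20), and the largest those of Mki67 (0.40), Ccna2 (0.35) and Cenpf (0.34). Mki67, with the largest SD, read 10.32, 10.79, 10.89 and 10.91 at 15 mg/kg and 10.87, 10.54, 10.88, 11.66 and 10.49 at 50 mg/kg. It thus went from 10.13 on vehicle replicate 1 to 11.66 on 50 mg/kg replicate 4. Ccna2, cyclin A2 of S phase and early mitosis, read 9.26, 9.92, 10.27, 10.07 and 10.13 in vehicle and 9.93, 9.94, 10.05, 10.05 and 9.29 at 0.1 mg/kg. At 15 mg/kg it read 9.51, 10.01, 9.96 and 10.04, and at 50 mg/kg 10.25, 9.92, 9.92, 10.54 and 9.52. Its lowest and highest arrays were those of Mki67. Cenpf read 8.72, 8.91, 8.92, 8.76 and 8.32 at 0.1 mg/kg and 8.60, 8.48, 8.83, 9.23 and 8.15 at 50 mg/kg, where replicate 4 was again the highest and replicate 5 the lowest.

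Among the genes with the smallest spread, Ttk read 7.33, 7.76, 7.61, 7.55 and 7.56 in vehicle, 7.50, 7.66, 7.55, 7.60 and 7.19 at 0.1 mg/kg, 7.64, 7.63, 7.51 and 7.58 at 15 mg/kg and 7.89, 7.94, 7.51, 7.94 and 7.31 at 50 mg/kg. Nusap1 read 9.16, 9.46, 9.58, 9.33 and 9.35 in vehicle, 9.33, 9.46, 9.41, 9.29 and 9.05 at 0.1 mg/kg, 9.17, 9.38, 9.26 and 9.44 at 15 mg/kg and 9.71, 9.70, 9.41, 9.89 and 9.10 at 50 mg/kg. In both, replicate 5 was the lowest at 0.1 and at 50 mg/kg and vehicle replicate 1 the lowest in vehicle, while 15 mg/kg replicate 2 was the lowest for Nusap1 and the highest for Ttk.

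When the median of the 37 further mitosis genes was subtracted from each array, the median SD was 0.14 and 36 of 37 genes had a lower SD. The exception was Melk, a kinase of dividing cells (0.246 before and 0.254 after). The share of the sum of squares that lay between groups had a median of 14.9% over the 37 genes, from 0.397% to 34.0%, against 17.6% over all genes. Means of small groups differ by sampling alone, so such a share is above 0 even without a dose effect. The group means of a gene spanned 0.22 at the median and its arrays 1.00.

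A further list held regulators of the G1 phase and its exit, along with Foxm1, Mybl2 (B-MYB) and the MuvB genes Lin9 and Lin54, which act on mitotic genes. Of 31 measured genes of this list, out of 35, 1 was called higher and 1 lower at 50 mg/kg, against 1.61% of probe sets called. The unadjusted p was under 0.05 for 4 of them (12.9%), against 15.4% of probe sets. Ccnd1, cyclin D1, which couples growth signals to E2F release, fell by 1.18 ± 0.176 (SE; limma adjusted p 0.00258). It read 9.75, 10.24, 9.52, 9.18 and 9.33 in vehicle, 9.70, 10.25, 9.65, 9.92 and 9.85 at 0.1 mg/kg, 9.25, 9.36, 9.52 and 9.41 at 15 mg/kg and 7.96, 8.62, 8.46, 8.34 and 8.73 at 50 mg/kg. All 5 arrays at 50 mg/kg lay below every array of the other groups. It passed in 21 of 22 alternatives. The exception was the fit without the arrays carrying muscle or pancreas transcripts, which kept 1 vehicle array. The difference there was -1.17 (limma adjusted p 0.624). Gadd45b, a stress-inducible growth arrest gene, rose by 1.05 ± 0.234 (SE; limma adjusted p 0.0313). It read 6.23, 6.76, 5.89, 6.10 and 6.16 in vehicle and 6.72, 7.93, 7.79, 7.44 and 6.51 at 50 mg/kg. Replicate 5 and replicate 1 at 50 mg/kg were below vehicle replicate 2, so the groups overlapped. It passed in 11 of 22 alternatives, among them 3 of the 10 that left out an array. The other 7, without replicate 2, 3 or 4 at 50 mg/kg or any vehicle array but replicate 2, gave differences of 0.89 to 1.05 with limma adjusted p-values of 0.0560 to 0.0774. The block for early against late arrays gave 0.90 (limma adjusted p 0.178). The same difference of 1.05 had an adjusted p of 0.102 in limma with the compared groups alone and 0.0548 with the ordinary t statistic. Cdkn1c, the CDK inhibitor p57, differed by -1.13 (limma adjusted p 0.431).

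Of 32 further replication genes measured, out of 35, and of 37 further mitosis genes, out of 44, limma called 0 at 50 mg/kg, with an unadjusted p under 0.05 for 5 (15.6%) and 7 (18.9%). The shares of all probe sets were 1.61% called and 15.4% with an unadjusted p under 0.05. Rpa3, the small subunit of the single-strand binding protein RPA, differed by 0.29 (limma adjusted p 0.0617). Mcm10, a replication initiation factor, differed by 0.28 (limma adjusted p 0.323). Spc24, of the NDC80 kinetochore complex, differed by 0.43 (limma adjusted p 0.320), and Fbxo5, the inhibitor Emi1 of the anaphase-promoting complex, by -0.45 (limma adjusted p 0.370). At 15 and at 0.1 mg/kg no gene of these lists passed, and no probe set of the array did either.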

How the data were processed

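Liver RNA was hybridised to 19 one-colour Affymetrix Rat230_2 arrays. The deposited values are log2 signals, 1 per probe set and array, made by the authors with RMA (background correction, quantile normalization and probe summary) per the submitters' processing notes, with the version not given in the sources at hand. Array medians of 6.06 to 6.16 leave relative levels only, and a gene's log2 difference is between group means.

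The 57 controls among 31099 probe sets were dropped, which left 31042 in the tests. Platform annotation gives 20826 of these 1 symbol, 436 several and 9780 none, and 20758 matched RefSeq by gene ID. Group means were compared in limma 3.58.1 (R 4.3.3) with all 4 groups in 1 fit, empirical Bayes moderation and Benjamini-Hochberg adjustment over all probe sets. Groups came from the sample labels. The fit was tested on simulated data. The text gives array values for genes that passed in any comparison, the 2 most raised and 2 most lowered per dose, the 3 smallest and largest SDs and the 2 smallest F test p-values, besides Ccnd1 and Gadd45b. Of the further lists, Ccnd1, genes that passed and the 2 most changed per list are named. Cdk1 and Ccnb1 are shown too and were chosen after their values were seen. Members and lists were chosen with earlier results of these data known. The series' own comparison used R/maanova per its design text, which was not rerun. Same-numbered arrays correlated between -0.614 and 0.902 in their deviations from group means, and between 0.09 (replicate 1) and 0.902 (replicate 2) for vehicle and 0.1 mg/kg. Since no pair of groups had every correlation over 0.1, replicate numbers were not taken to pair samples. For vehicle and 0.1 mg/kg only replicate 1 missed this, and its 0.1 mg/kg array is the one that goes against its label. Replicates 2 to 5 of these groups correlated at 0.902, 0.416, 0.431 and 0.33, so a pairing between them remains possible. Alternatives were other filters, priors, scalings, probe set rules, blocks and left-out arrays, and the split by array number and the fit without both replicates 2 (vehicle and 0.1 mg/kg) were chosen after seeing the data.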

Additional observations from a re-analysis of the deposited data

Results flagged for a closer look

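Each of the 37 genes was examined in each of the 4 dose groups for a single array far from the others, taken as a gap to the nearest array above 0.710 of the group's range with 5 arrays or 0.829 with 4. Of 148 such checks, 18 met this. Chance gives about 1 in 20 groups, and the genes are not independent, since they were high or low on the same arrays. Vehicle replicate 1 was the low array for Mcm2 (9.23), Tyms (6.57), Plk1 (7.70), Kif23 (8.58), Cenpf (8.20), Ube2c (9.61) and Cdca3 (9.29). At 0.1 mg/kg, replicate 5 was the low array for Mcm7 (10.29), Tyms (6.60), Ccna2 (9.29), Kif20a (8.04), Cdc20 (8.11), Ube2c (9.79) and Cdca3 (9.39). At 15 mg/kg, replicate 2 was the low array for Mcm3 (7.83), Ccna2 (9.51) and Bub1b (7.81). The only high array was 50 mg/kg replicate 4, for Mcm4 (10.30).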

How the results depend on the processing

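The count of genes called stayed at 0 in every alternative tried, except at 50 mg/kg without replicate 5, where it was 1 (range 0 to 1 over left-out arrays). Medians of the 37 differences, with arrays left out in turn, ran from -0.02 to 0.22 at 50 mg/kg, -0.14 to 0.01 at 15 mg/kg, -0.15 to 0.05 at 0.1 mg/kg and 0.10 to 0.30 for 50 against 15 mg/kg. With the replicate number as a block the median at 15 mg/kg was -0.07, at 50 mg/kg 0.10, and no gene passed. Early and late arrays, a split chosen after seeing the data, gave 0.58 and -0.39 at 50 mg/kg and 0.47 and -0.34 for 50 against 15 mg/kg. Within early arrays the value at 0.1 mg/kg was 0.38. It sets 1 array, replicate 1 that goes against its label, against 1 other, the low vehicle replicate 1. Without the arrays carrying muscle or pancreas transcripts the median was -0.36 at 15 mg/kg and -0.31 at 0.1 mg/kg. That setting leaves 2 arrays at 15 mg/kg and 1 in vehicle, replicate 3, assumed to vary like the others and above the vehicle mean for all 37 genes. It reversed Birc5 at 50 (-0.14), 15 (-0.50) and 0.1 mg/kg (-0.36), Gmnn at 15 mg/kg (-0.22), Tyms at 0.1 mg/kg (-0.10) and Mcm10 at 50 mg/kg (-0.033). At 0.1 mg/kg, with arrays left out in turn, Birc5 ran from -0.026 (without replicate 1, the array against its label) to 0.24 and Tyms from -0.071 (without vehicle replicate 1) to 0.18. The cause was not tested.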
